A study of Danio rerio with 4 samples.

Results

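The genes described here are 46 listed genes of DNA replication and S-phase entry, followed across 6 cell lineages of the zebrafish embryo at the shield stage and between 2 maternal genotypes. They were taken by name from a list, which was chosen with earlier results of these data known. All 46 were found among 30895 gene symbols in the deposited table, in 57 of its 47394 entries, because some symbols carry extra entries with a numeric suffix, which were added to their gene. cdc6, which loads the replicative helicase, and rfc3, a clamp loader subunit, were listed at 0 in every cell, so 44 genes had values.

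The embryos were Mrbm24a, from mothers whose oocytes carried Cas9 under the zpc promoter and guide RNAs against rbm24a, or siblings, which the methods describe as wild type. rbm24a encodes an RNA-binding protein, and editing in the oocyte leaves the paternal allele in place and may leave some maternal product. Whole shield-stage embryos were dissociated, 33 of them by the methods, which do not say whether that is per genotype or per library, and each genotype gave 2 droplet 3′ single-cell libraries, named here Mrbm24a 1, Mrbm24a 2, sibling 1 and sibling 2. The study mentions collection in batches, but the labels do not say which libraries form a batch or whether the libraries of a genotype came from separate pools, so p-values measure only the spread between these samples, which may be technical. rbm24a was near the floor everywhere, at 0.381 and 0.314 CPM (the count of a gene scaled to a common library total) in Mrbm24a and 0.438 and 0.469 CPM in siblings, and a 3′ tag outside an edited site checks no label.

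Replication starts at origins bound by the origin recognition complex, on which Cdc6 and Cdt1 load the MCM helicase. Cdc45 and the GINS complex then turn the helicase on, primase and the polymerases copy the strands behind it on the PCNA clamp, and Fen1 and DNA ligase I join the lagging-strand fragments. In proliferating cells the mRNAs of these factors are mostly made around the G1 to S transition under E2F control. Early zebrafish embryos are also supplied with many of them by the mother. The enveloping layer (EVL) is the flat outer epithelium of the embryo, and the deep cells beneath it give rise to endoderm, mesoderm, epidermis and neural tissue.

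Of 14455 deposited cells, 11338 had 3000 or more unique molecular identifiers (UMIs). Libraries held 2354 to 3315 such cells, with medians of 13793 to 16149 UMIs a cell, and 16 barcode sequences occurred in more than 1 library. Cells were assigned to a lineage where the value of its marker was over 0.5, which gave 366 cells for krt92 (EVL), 3674 for sox32 (endoderm), 3534 for noto (axial mesoderm), 3298 for tbx6l (paraxial mesoderm), 2226 for foxi1 (epidermis) and 3260 for her3 (neural ectoderm). These gates overlapped: between 57.4% and 79.6% of the cells of a gate carried another of the 6 markers. In the EVL gate all 7 further EVL genes were at least 2-fold above the remaining cells in all 4 libraries. Of the further genes in the other gates, 4 of 7 reached that mark for paraxial, 3 of 6 for endoderm, 3 of 7 for epidermal, 1 of 6 for axial and 0 of 7 for neural cells, so those gates only partly separate the tissues and are named here by their gate. Mitochondrial genes took 0.877% and 0.880% of UMIs in Mrbm24a libraries, against 1.44% and 1.85% in sibling libraries. Mrbm24a 2 held 40 cells above 100000 UMIs, where the other libraries held 2 to 4.

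Beside this gate, 2 other cell choices were used. One keeps cells with exactly 1 of the 6 markers over 0.5. The other, chosen after the data were seen, is called the stricter gate. There EVL cells must also have at least 2% of their UMIs in krt92 and the 7 EVL genes, and cells of the other lineages a marker value over 4.5. This left 217 EVL, 662 endoderm, 546 axial, 628 paraxial, 84 epidermal and 542 neural cells. Epidermal cells were only 7 and 13 in Mrbm24a 1 and 2, and 26 and 38 in sibling 1 and 2. Of the further genes, 5 of 6 for endoderm and 3 of 6 for axial cells were then at least 2-fold above the remaining cells in all 4 libraries. For paraxial, epidermal and neural cells 2, 2 and 0 of 7 were. Cells with exactly 1 marker had no such check.

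Replication genes took a smaller share of the mRNA of EVL cells than of the deep lineages. The deep gates were close to one another, but they share cells, which draws their values together. Summed over the 46 genes, EVL cells of the krt92 gate had 0.397% of their UMIs in replication genes in Mrbm24a 1, 0.789% in Mrbm24a 2, 0.290% in sibling 1 and 0.316% in sibling 2. The 5 other gates together ranged over 0.867% to 0.936%, and over 0.847% to 0.953% in cells with exactly 1 marker. EVL was the lowest lineage in all 4 libraries with these gates, with exactly 1 marker and with the stricter gates. Over all cells of 3000 or more UMIs the share was 0.896% and 0.915% in Mrbm24a, against 0.876% and 0.892% in siblings.

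**Figure D1:**
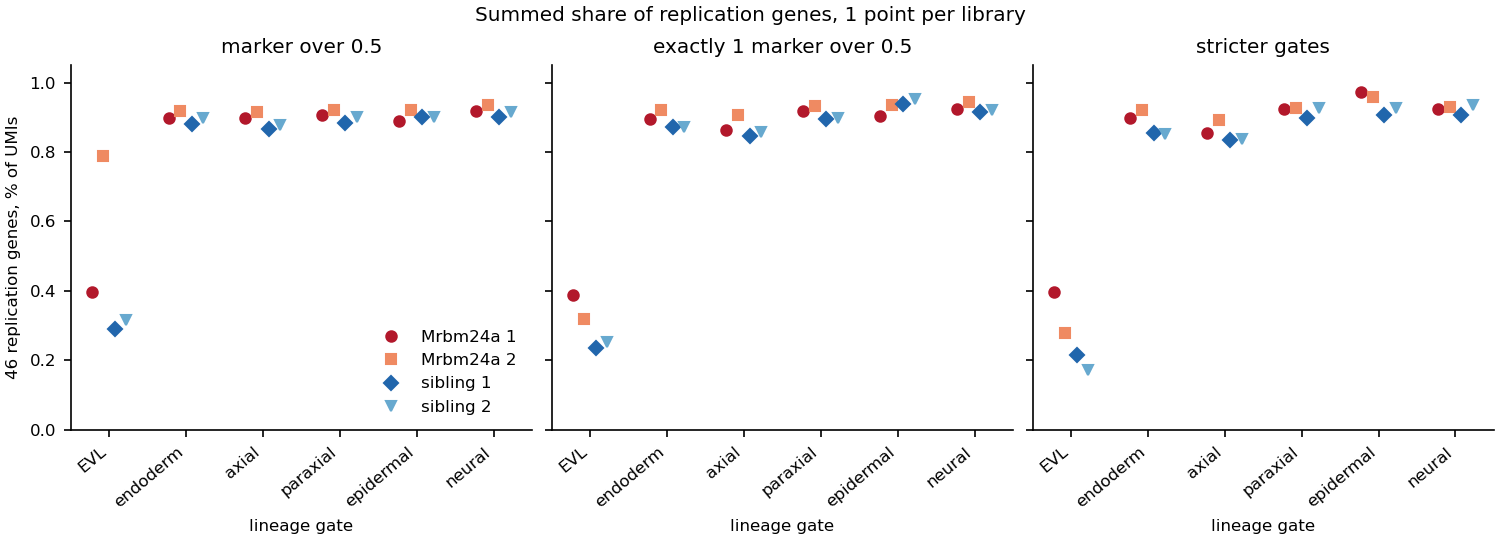
Percent of UMIs in the 46 replication genes (vertical axis) for each lineage gate (horizontal axis), 1 point per library, for cells over 0.5 for the marker, cells with exactly 1 marker and the stricter gates. EVL points lie below those of the other 5 lineages in each panel, and Mrbm24a 2 stands apart in the first panel at 0.789%.

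The high EVL value of Mrbm24a 2 belonged to krt92-positive cells with little other EVL RNA. In that library 45 of the 93 gated cells had under 1% of their UMIs in krt92 and the 7 EVL genes, 17 of them held more than 100000 UMIs, and together they made up 75.9% of the UMIs of the gate with 0.952% in replication genes. Sibling 1 held 46 and sibling 2 held 55 such cells, with 0.714% and 0.776% in replication genes, while Mrbm24a 1 had none. Cells with at least 2% EVL RNA had 0.397% and 0.280% in replication genes in Mrbm24a 1 and 2 (46 and 48 cells), against 0.216% and 0.172% in sibling 1 and 2 (81 and 42 cells). Median depth was 19269 to 23570 UMIs a cell over the libraries in these EVL cells, and 14409 to 31732 UMIs over libraries and gates in the other stricter gates.

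**Figure D2:**
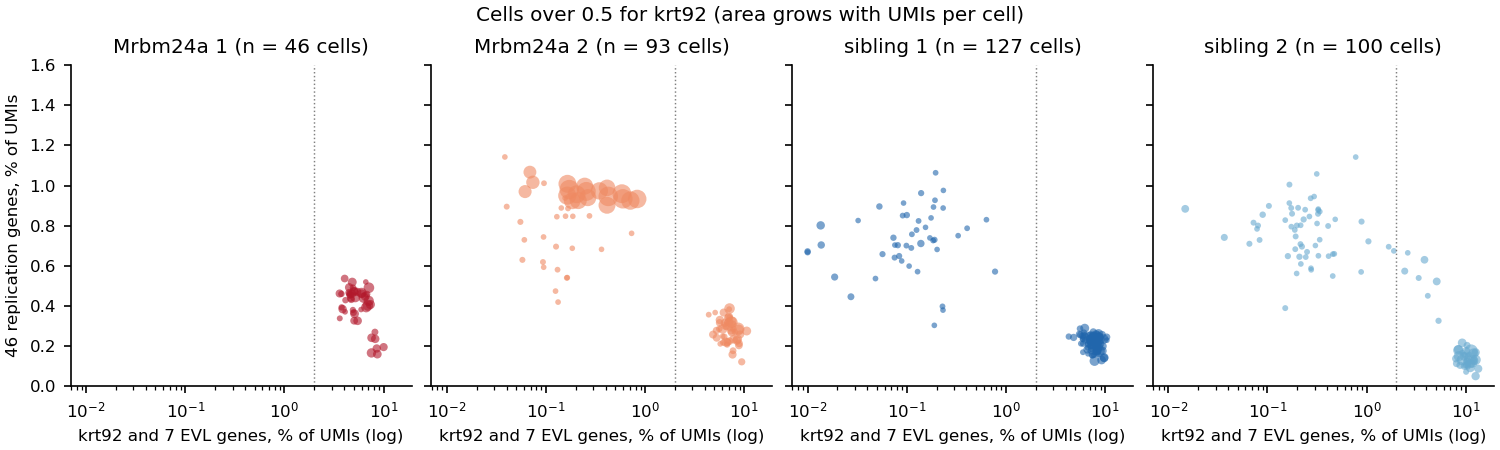
Each point is 1 cell over 0.5 for krt92, with the percent of its UMIs in krt92 and 7 EVL genes on a log axis, the percent in the 46 replication genes on the vertical axis, and an area that grows with its UMIs; cells below the axis are drawn at its left end and the dotted line marks 2%. Cells right of the line have medians of 0.435% and 0.279% in Mrbm24a 1 and 2 and 0.226% and 0.143% in sibling 1 and 2, a few of sibling 2 reach up to 0.664% and overlap those left of it, and the large points of Mrbm24a 2 lie left of the line.

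Gene by gene, 37 of the 44 replication genes tested were lower in EVL than in the mean of the other 5 lineages, where 30.4% of all 14716 genes tested were lower, and 1 was higher, where 24.7% of all genes were (edgeR quasi-likelihood test on counts summed per library and lineage, Benjamini-Hochberg adjusted p below 0.05). The median log2 fold change was -0.79 for the replication genes and -0.15 for all genes tested. With the stricter gates 35 of 43 were lower and 1 higher, against 36.4% and 35.5% of all genes, with a median of -1.24. Cells with exactly 1 marker gave 36 lower and 1 higher of 43, against 30.1% and 29.9% of all genes, and a median of -1.26. In the krt92 gate leaving out sibling 2 left 18 calls in either direction, and leaving out any 1 library with the stricter gates left 36 to 39. The share of all genes called in these fits is not given. All genes shifted with the scaling too, the EVL median being -0.07 with RLE size factors and -0.30 with no scaling, and the replication genes lay at -0.71 and -0.94 under these.

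All 6 subunits of the MCM helicase fell. mcm5 had 93.9 and 209 CPM in Mrbm24a EVL cells and 81.2 and 97.7 CPM in sibling EVL cells of the krt92 gate, where all cells of these libraries had 322 and 335 CPM in Mrbm24a and 340 and 374 CPM in siblings. Its log2 fold change in EVL over the other lineages was -1.34 ± 0.16 (SE, adjusted p = 6.05e-07), and -2.42 ± 0.19 with the stricter gates (adjusted p = 1.36e-10). SE values throughout were derived from the F of the test. mcm2 and mcm6, also helicase subunits, fell by 1.26 ± 0.10 and 1.28 ± 0.13 on the log2 scale.

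Among the listed factors that load and start the helicase, 6 of 7 tested fell and gins2 did not. cdt1, the licensing factor, had 148 and 204 CPM in Mrbm24a EVL cells and 104 and 128 CPM in sibling EVL cells, where all cells had 332 and 319 CPM in Mrbm24a and 299 and 313 CPM in siblings. cdc45 followed at -0.89 ± 0.12 on the log2 scale, or -1.88 ± 0.28 with the stricter gates. gins2, a subunit of the GINS complex, was the only 1 of 44 genes called higher in the krt92 gate. It had 32.2 and 38.0 CPM in Mrbm24a EVL cells and 35.4 and 40.2 CPM in sibling EVL cells, and a log2 fold change of 0.27 ± 0.07 (adjusted p = 0.0042). It stayed higher with the stricter gates, at 0.50 ± 0.13 (adjusted p = 0.0018), and was not called with no scaling factors, where its log2 fold change was 0.12. Its call with the stricter gates held without any 1 library. In cells with exactly 1 marker the call was lost without Mrbm24a 1, Mrbm24a 2 or sibling 1. Its partners gins1 and gins3 fell, by 0.83 ± 0.20 and 0.36 ± 0.14 on the log2 scale. A further partner, gins4, is outside the listed genes and was not called in either gate. Its log2 fold change was -0.08 ± 0.10 in the krt92 gate (adjusted p = 0.83) and -0.09 ± 0.17 with the stricter gates (adjusted p = 0.67). Of the origin recognition subunits orc1, orc3, orc4 and orc6 fell in the krt92 gate, orc1 not with the stricter gates, and orc2 and orc5, at 3.71 to 4.80 CPM over all cells, were not called.

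At the fork itself pcna, the sliding clamp, had 565 and 1436 CPM in Mrbm24a EVL cells and 375 and 311 CPM in sibling EVL cells of the krt92 gate. Mrbm24a 2 alone was above its own level over all cells, 1334 CPM. With the stricter gates pcna had 402 CPM in Mrbm24a 2, and the log2 fold change of EVL over the other lineages was -1.50 ± 0.14 (adjusted p = 3.54e-09), against -0.90 ± 0.21 in the wider gate. All 3 subunits of the single-strand binding protein RPA fell, as did 4 of 5 clamp and loader genes and 5 of 7 polymerase and primase genes. pold1, the catalytic subunit of polymerase delta, changed by -1.11 ± 0.21, from few counts, since it had 4.44 to 6.72 CPM over all cells.

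fen1, the flap nuclease of lagging-strand synthesis, had the largest fall of the 43 genes tested with the stricter gates. There it had 7.78 and 18.6 CPM in Mrbm24a EVL cells and 17.2 and 5.56 CPM in sibling EVL cells, where all cells had 167 and 189 CPM in Mrbm24a and 191 and 209 CPM in siblings. The log2 fold change was -3.49 ± 0.16 (adjusted p = 9.19e-15), against -1.15 ± 0.38 in the krt92 gate, in which Mrbm24a 2 had 252 CPM. These SEs rest on a spread estimated over all 6 gates together, not on the EVL values alone. slbp, which binds the stem-loop of histone mRNA, and dnajc9, a histone chaperone partner, fell by 2.41 ± 0.19 and 2.16 ± 0.15 on the log2 scale with the stricter gates. ccne2, the E2 cyclin of S-phase entry, differed between the gates. Its log2 fold change was -0.33 ± 0.06 in the krt92 gate (adjusted p = 0.00016), but with the stricter gates it had 205 and 141 CPM in Mrbm24a EVL cells and 155 and 111 CPM in sibling EVL cells, and a log2 fold change of 0.07 ± 0.08 (adjusted p = 0.46). Of the genes of nucleotide supply rrm1, rrm2 and tyms fell and dut, which removes dUTP, was not called. rrm2, the small subunit of ribonucleotide reductase, had 372 and 966 CPM in Mrbm24a EVL cells and 278 and 378 CPM in sibling EVL cells of the krt92 gate, and a log2 fold change of -0.73 ± 0.16 (adjusted p = 0.00063). As for pcna, slbp and fen1, its level in Mrbm24a 2 stood above the other 3 libraries.

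**Figure D3:**
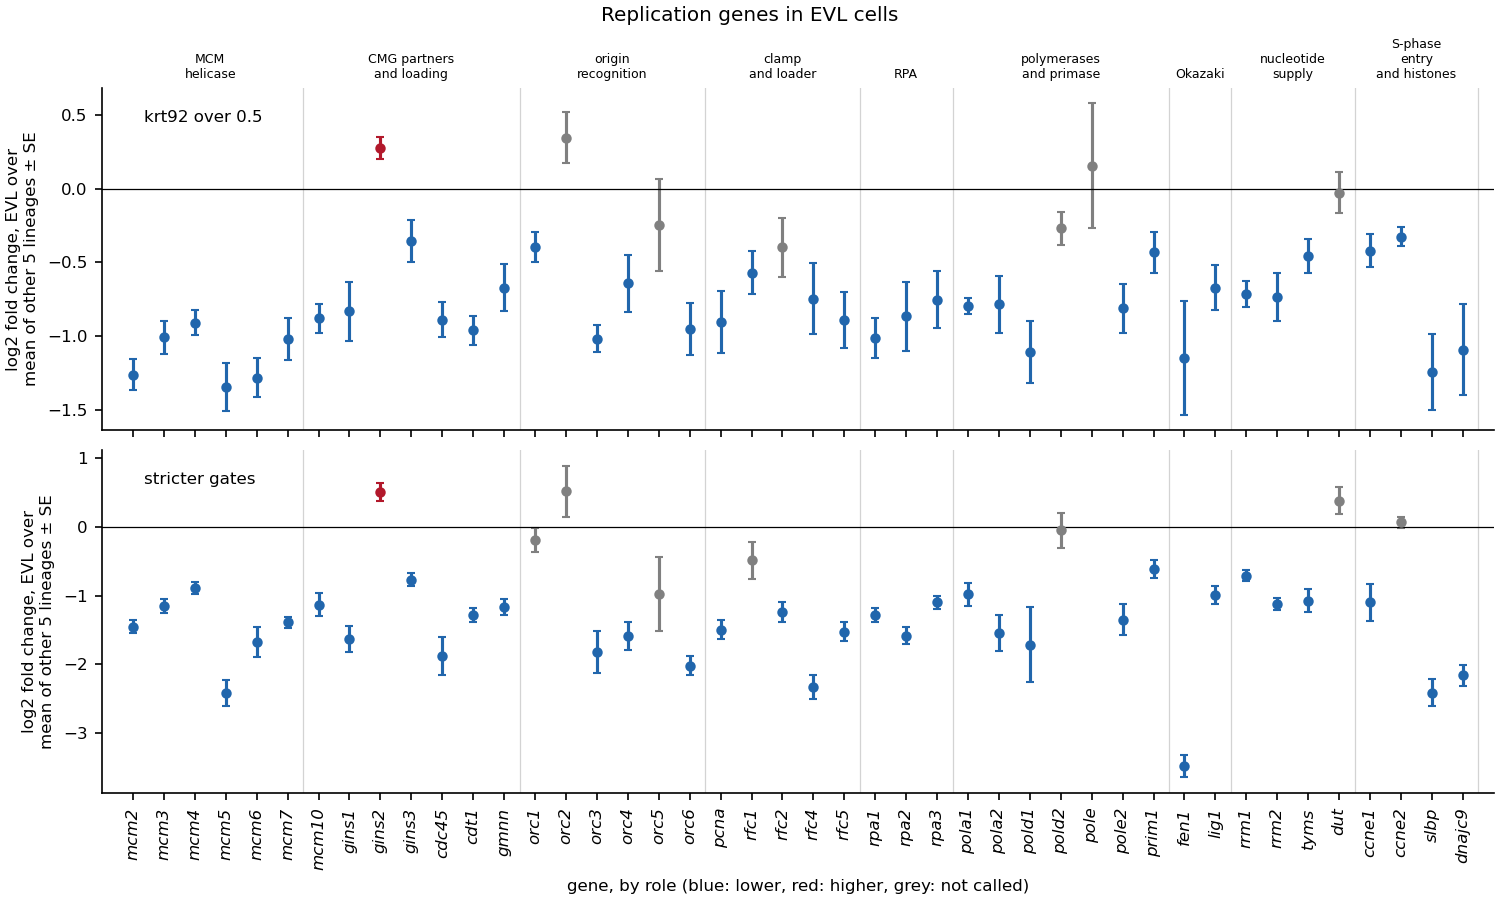
Log2 fold change (vertical axis, ± SE) of each tested replication gene in EVL over the mean of the other 5 lineages, ordered by role along the horizontal axis, for cells over 0.5 for krt92 (top) and the stricter gates (bottom). Blue genes were called lower and red ones higher by edgeR; gins2 is the red point in both panels, and fen1 is the lowest point of the bottom panel at -3.49.

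Further lists of cell-cycle genes held mostly lower genes too. Of further fork and origin factors 16 of 21 were lower in EVL and 0 higher, of replication-coupled chromatin genes 11 of 13 lower and 0 higher, of G1/S regulators 15 of 21 lower and 2 higher, and of mitotic genes 21 of 24 lower and 0 higher, where 30.4% of all genes were lower and 24.7% higher. Their median log2 fold changes were -0.80, -0.91, -0.48 and -0.86. With the stricter gates kif11, a spindle motor, fell by 2.63 ± 0.14 and nasp, a histone chaperone, by 1.83 ± 0.10 on the log2 scale. cdkn1cb, a Cdk inhibitor gene, fell by 3.78 ± 0.25 on that scale. The 2 G1/S genes higher in the krt92 gate were E2F factors, e2f5 at 0.92 ± 0.08 and e2f8, a repressor in mammals, at 0.34 ± 0.10. With the stricter gates e2f5, e2f7 and e2f8 were higher, at 1.49 ± 0.15, 0.77 ± 0.15 and 0.88 ± 0.08. So were the mitotic genes bub1bb and spc25, at 0.57 ± 0.08 and 0.24 ± 0.07, and the histone chaperone gene asf1bb, at 0.76 ± 0.24, where 35.5% of all genes were higher.

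Few replication genes differed among the 5 deep gates, whose shared cells draw their values together. Against the mean of all other lineages, which includes EVL, 3 genes were higher in paraxial cells (mcm2, ccne2 and pola1, where 8.81% of all genes were higher), 2 in epidermal cells (orc3 and pola1, 4.32% of all genes) and 8 in neural cells (11.9% of all genes), in which mcm2, mcm6 and pold1 reached 0.35 ± 0.09, 0.35 ± 0.11 and 0.40 ± 0.07 on the log2 scale. gins2 was lower in neural cells, at -0.19 ± 0.06, where 16.3% of all genes were lower. In endoderm and axial cells 0 were called, where 10.2% and 2.26% of all genes were in either direction. Since EVL weighs on that mean, each deep gate was also compared with the other 4 deep gates, a comparison added after the data were seen. There edgeR called 0 of 44 in all 5 gates, where 0.775% of all genes were called in endoderm, 2.96% in axial, 3.83% in paraxial, 1.82% in epidermal and 4.38% in neural cells. In that order 1, 0, 1, 1 and 3 genes had an unadjusted p below 0.05, DESeq2 called 0, 1, 1, 0 and 1, and limma called 0 in each. The counts against all other lineages rose to between 26 and 37 a gate when Mrbm24a 2, with its high krt92 gate, was left out. The share of all genes called there is not given, so the rise is not shown to be particular to replication genes.

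With cells of exactly 1 marker, which share no cells between gates, calls appeared in each of the 5 comparisons among 43 genes tested. The genes named for these comparisons were chosen after their values were seen. For axial cells 5 were lower, where 3.08% of all genes were, and for neural cells 5 were higher and 1 lower, where 7.93% and 8.55% were. For epidermal cells 4 were higher, where 4.23% were. For endoderm cells 2 were higher and 1 lower, where 6.83% and 3.31% were, and for paraxial cells 1 was higher and 1 lower, where 7.38% and 6.20% were. Restricting to 1 marker also lowered the depth, to medians of 10944 to 15579 UMIs a cell over the pooled libraries. The endoderm gate of Mrbm24a 1 had a median of only 6210 UMIs, with sox32 at 437 CPM. In the other libraries that gate had medians of 12913 to 13295 UMIs and sox32 at 775 to 1464 CPM.

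orc6, the smallest subunit of the origin recognition complex, was higher in both ectodermal gates than in the paraxial gate. It had 94.0 and 101 CPM in Mrbm24a and 93.6 and 107 CPM in sibling neural cells, and 92.8 and 99.7 CPM in Mrbm24a and 93.8 and 102 CPM in sibling epidermal cells. Paraxial cells had 55.2 and 62.9 CPM in Mrbm24a and 51.4 and 57.8 CPM in siblings, without overlap with either ectodermal gate. The log2 fold changes over the other 4 deep gates were 0.42 ± 0.05 for neural (adjusted p = 1.89e-07), 0.36 ± 0.06 for epidermal (adjusted p = 1.64e-05) and -0.56 ± 0.06 for paraxial cells (adjusted p = 2.53e-09). These 3 calls held when any 1 library was left out. They were also made with the stricter gates, at 0.31 ± 0.07, 0.41 ± 0.10 and -0.28 ± 0.07, where all 3 were lost without sibling 1 or sibling 2 and the epidermal and paraxial calls without Mrbm24a 1. The stricter epidermal gate held only 7 and 13 Mrbm24a cells. For axial cells orc6 was called lower as well, both with exactly 1 marker and with the stricter gates. Without Mrbm24a 1, sibling 1 or sibling 2 that axial call was lost in both.

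ccne2 was highest in paraxial cells, with 295 and 281 CPM in Mrbm24a and 288 and 217 CPM in siblings, and lowest of the deep gates in axial cells, with 202 and 201 CPM in Mrbm24a and 175 and 142 CPM in siblings. The ranges of these gates did not overlap. The log2 fold changes were 0.45 ± 0.05 (adjusted p = 8.61e-09) and -0.32 ± 0.06 (adjusted p = 7.35e-05), and both calls held without any 1 library. Both were also made with the stricter gates, where they were lost without sibling 1 or sibling 2.

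Endoderm cells with exactly 1 marker had more of cdt1 and of gmnn, which encodes the inhibitor of Cdt1. These were 2 of 43 genes tested, where 6.83% of all genes were higher. cdt1 had 356 and 402 CPM in Mrbm24a and 366 and 351 CPM in sibling endoderm cells, for a log2 fold change of 0.24 ± 0.05 (adjusted p = 0.00062). gmnn, at 294 and 306 CPM in Mrbm24a and 332 and 298 CPM in siblings, reached 0.25 ± 0.05 (adjusted p = 0.00072). rrm1, of ribonucleotide reductase, was lower, with a log2 fold change of -0.23 ± 0.05. All 3 calls held without any 1 library. None of them was called with the stricter gates.

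gins2 differed between the ectodermal gates, at 0.52 ± 0.11 for epidermal and -0.49 ± 0.11 for neural cells. Its epidermal level was higher in the siblings, with 30.6 and 27.3 CPM in Mrbm24a and 47.4 and 56.8 CPM in siblings, against 26.2 and 18.4 CPM in Mrbm24a and 25.2 and 24.9 CPM in sibling neural cells, and without sibling 2 the epidermal call was lost. Between genotypes within epidermal cells of 1 marker the log2 fold change was -0.84 ± 0.17, which did not pass over all genes (adjusted p = 0.063). Calls for mcm2, mcm5, rpa2, pola1, pola2, pole2, orc3 and rrm1 in axial, epidermal or neural cells were between -0.19 and 0.32. Of these, mcm2 in neural cells, at 0.22 ± 0.05, was the only call that held whichever library was left out. Neither these calls nor those of gins2 were made with the stricter gates.

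**Figure D4:**
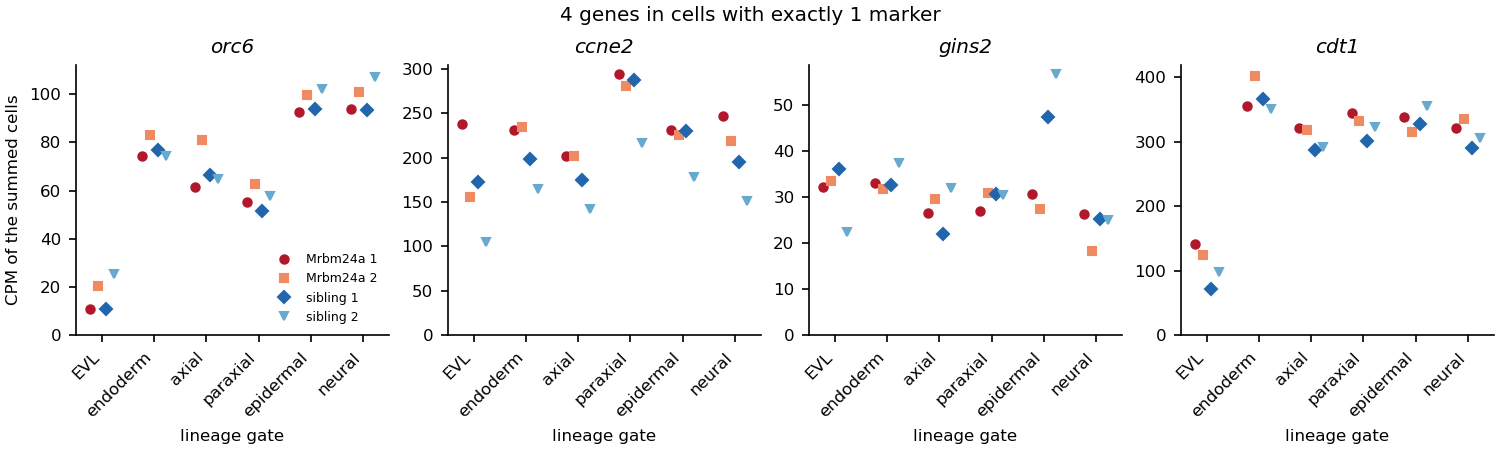
CPM of the summed cells (vertical axis, from 0) of orc6, ccne2, gins2 and cdt1 in each lineage gate, in cells with exactly 1 marker, with 1 point per library. orc6 is high in epidermal and neural cells (92.8 to 107 CPM), ccne2 in paraxial cells, cdt1 in endoderm cells, and gins2 in the epidermal cells of both sibling libraries.

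Summed over the 46 genes, axial cells had the lowest share of the 5 in all 4 libraries with 1 marker, at 0.865% and 0.908% in Mrbm24a and 0.847% and 0.858% in siblings, and again with the stricter gates. Neural cells were highest in all 4 libraries of the wider gates, at 0.917% and 0.936% in Mrbm24a and 0.902% and 0.916% in siblings, but epidermal cells exceeded them in both siblings with 1 marker. The means of the 5 gates were 0.890% (axial) to 0.918% (neural), with SDs of 0.0130 to 0.0211 percentage points between libraries (n = 4). Over all single cells of a library the share was 0.610% to 0.699% at the 10th percentile and 1.09% to 1.11% at the 90th, a spread that includes the counting error of cells with few UMIs.

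Between the genotypes no replication gene passed the test over all cells. edgeR called 0 of 44 between Mrbm24a and siblings, where 0.809% of all 16554 genes tested were called, and 6 had an unadjusted p below 0.05. DESeq2 and limma also called 0, with 3 and 7 at an unadjusted p below 0.05. The share of all genes at that level is not given. The median log2 fold change was -0.03, and single genes ranged over -0.48 to 0.50. In 7 genes both Mrbm24a libraries were above both siblings, where 20.5% of all genes were, and in 17 both were below, where 29.7% of all genes were. The MCM subunits, at 2930 and 2940 CPM in Mrbm24a and 2919 and 3033 CPM in siblings when summed, lay within 0.11 of 0 on the log2 scale each.

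The smallest p-values belonged to dnajc9, lig1 and pold1. dnajc9 had 82.2 and 88.8 CPM in Mrbm24a and 101 and 127 CPM in siblings (log2 fold change -0.36 ± 0.11, adjusted p = 0.18). lig1, DNA ligase I, had 148 and 157 CPM in Mrbm24a and 174 and 231 CPM in siblings (-0.35 ± 0.12, adjusted p = 0.23). pold1 had 4.44 and 4.49 CPM in Mrbm24a and 5.32 and 6.72 CPM in siblings (-0.37 ± 0.13, adjusted p = 0.23). pole, which encodes the catalytic subunit of polymerase epsilon, stood at 1.06 and 1.14 CPM in Mrbm24a and 1.65 and 1.498 CPM in siblings (-0.48 ± 0.20, adjusted p = 0.30). rpa3 had the largest positive value, 0.50 ± 0.22, and rested on sibling 2, at 245 CPM where the other libraries had 387 to 445 CPM. pcna, with 1248 and 1334 CPM in Mrbm24a and 1146 and 1270.1 CPM in siblings, overlapped between the genotypes. Leaving out sibling 1 leaves 1 sibling library, so the calls it gave are not counted here.

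**Figure D5:**
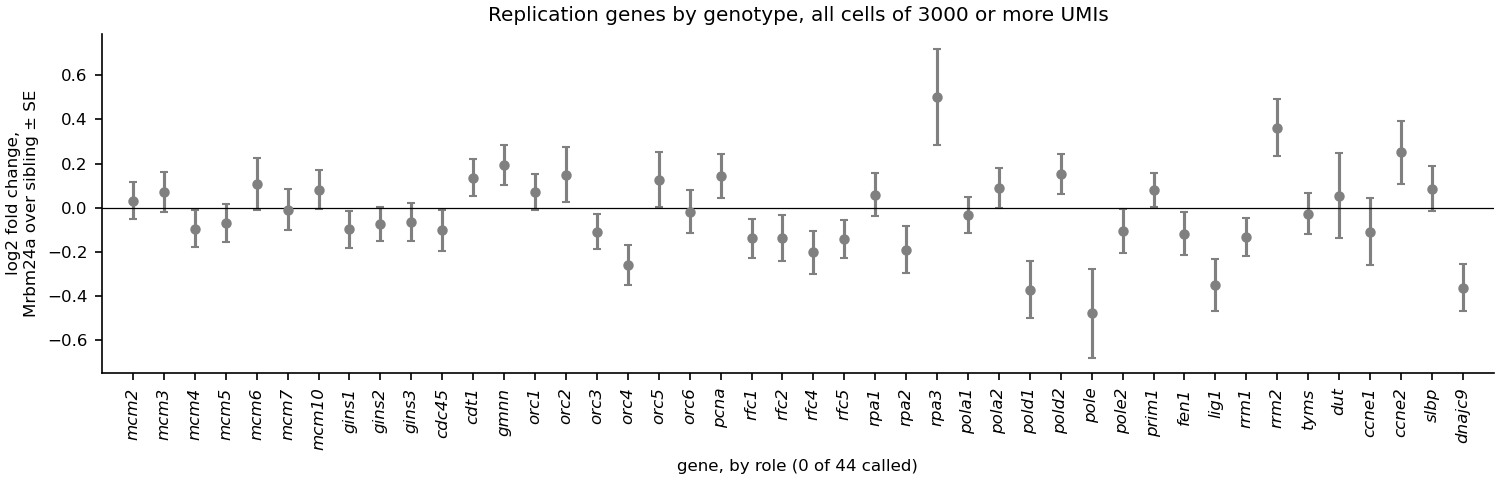
Log2 fold change (vertical axis, ± SE) of the 44 replication genes between Mrbm24a and sibling, summed over all cells of 3000 or more UMIs and ordered by role along the horizontal axis. All points lie between -0.48 and 0.50, and none was called.

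For 10 of the 46 genes the table holds more than 1 entry under the same symbol, and these parts did not always move together. The entry gmnn had 252 and 253 CPM in Mrbm24a and 209 and 202 CPM in siblings, while gmnn_1 had 37.2 and 40.025 CPM in Mrbm24a and 55.4 and 58.8 CPM in siblings. dnajc9 differed by a log2 fold change of -0.06 ± 0.10 and dnajc9_1 by -0.71 ± 0.11. Kept apart, dnajc9_1 and gmnn_1 were called (adjusted p = 0.038 and 0.049), but the sums of their genes were not. The files do not say what sets such entries apart, and reads shared between near-identical copies can be split unevenly, so the genotype differences of these genes are uncertain.

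Within lineages edgeR again called 0 replication genes between Mrbm24a and siblings in each of the 6 gates, where it called 0% of all genes in EVL and epidermal, 1.91% in endoderm, 0.263% in axial, 0.0434% in paraxial and 0.950% in neural cells. Between 1 and 7 of them had an unadjusted p below 0.05 in a gate, and limma and DESeq2 called 0 as well. Median log2 fold changes were -0.06 to 0.01 in the deep gates. In EVL the median was 0.79, with 40 of 40 genes tested above 0, against 0.01 for all genes. Without Mrbm24a 1 the fit rests on 1 Mrbm24a library, so the calls it gave in EVL are not counted here. 16 of the 40 were above both siblings in both Mrbm24a libraries, where 17.4% of all genes were.

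The size of the EVL value differed between gates. With the stricter gate the median of 34 genes tested was 0.63, and 20 of them did not overlap upwards (29.3% of all genes). The median of all genes in that gate is not given. Of the 34, 0 were called, as 0% of all genes were, and 12 had an unadjusted p below 0.05. The share of all genes at that level is not given, so the 12 are not shown to be particular to replication genes. The gene closest to a call was slbp, at 1.57 ± 0.35 (229 and 119 CPM in Mrbm24a, 63.7 and 43.1 CPM in siblings, adjusted p = 0.38). Without Mrbm24a 1, Mrbm24a 2, sibling 1 and sibling 2 in turn, the median in that gate was 0.41, 0.76, 0.60 and 0.66. Without cells above 60000 UMIs the krt92 gate gave a median of 0.12. RNA of the deep lineages was also higher in the Mrbm24a EVL cells of the stricter gate: the 6 endoderm genes summed to 137 and 63.3 CPM in Mrbm24a and 25.3 and 32.1 CPM in siblings, the 6 axial genes to 496 and 199 CPM in Mrbm24a and 119 and 49.3 CPM in siblings, while the 7 EVL genes summed to 53643 and 64042 CPM in Mrbm24a and 68563 and 83402 CPM in siblings. Their part in the result was not tested.

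The genotype difference was also compared between lineages with an interaction term. pole2, a subunit of polymerase epsilon, and mcm3 passed that test (adjusted p = 0.0066 and 0.024), where 3.04% of all genes did. In EVL cells pole2 had 22.7 and 27.9 CPM in Mrbm24a and 8.63 and 10.995 CPM in siblings, and mcm3 had 394 and 460 CPM in Mrbm24a and 231 and 252 CPM in siblings, whereas in the deep gates both genes had log2 fold changes between -0.16 and 0.12. Against the mean of the 5 deep gates, 23 of 44 genes had a larger Mrbm24a excess in EVL, where 10.1% of all genes did. With the stricter gates 5 of 43 did, pola1, slbp, mcm3, mcm5 and cdc45, where 3.08% of all genes did, and without cells above 60000 UMIs or with exactly 1 marker edgeR called 0, where 0.445% and 0.855% of all genes were called in either direction, with 10 and 6 at an unadjusted p below 0.05. The difference of the EVL share of UMIs, 0.593% in Mrbm24a against 0.303% in siblings on average in the krt92 gate, was 0.344% against 0.368% in cells of 8000 to 20000 UMIs. That range holds 12 and 15 cells in Mrbm24a, none of them under 2% EVL RNA, and 32 and 9 cells in siblings, 8 and 3 of them under 2%. With the stricter gate the shares were 0.338% against 0.194%.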

How the data were processed

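The deposited table holds estimated counts: per the study's methods, the authors filtered reads with Trimmomatic, counted UMIs with Cell Ranger, replaced counts by DecontX-corrected values, removed doublets with Scrublet and dropped barcodes beyond 5 median absolute deviations. The genome build named in the submitters' processing notes is GRCz10. Correction gives decimals, so cells were added up within each library, and within each lineage of it, and the sums rounded. Each library held 38866900 to 61493000 UMIs in cells of 3000 or more UMIs.

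The members, gates and lists were chosen with earlier results of these data known. edgeR 4.0.16 (R 4.3.3; TMM, filterByExpr, quasi-likelihood, adjusted p below 0.05 over all genes) was fitted to 24 library-by-lineage sums with library as a term for lineages, and to 4 sums for genotype; the lineage sums share cells unless 1 marker is required. Each ± SE is the absolute log2 fold change divided by the square root of the test's F. It is not a separate estimate of error and need not match the p-value. Lineage sums that share cells are not independent, and their spread was estimated over all gates together. The SEs and p-values of the lineage tests can therefore be too small. Within-lineage tests needed 30 cells in each library. All counts at an unadjusted p below 0.05 stand without the share of all genes at that level, so they are not shown to be particular to replication genes. DESeq2 1.42.0, limma 3.58.1 (log2(CPM + 1)), other scalings, filters, depths and gates were alternatives. Named genes were those with the 3 highest and lowest levels (pcna, rrm2, mcm3; cdc6, rfc3, pole), the largest called changes per lineage (6 each way in EVL, otherwise 3), the 3 smallest genotype p-values and those past the interaction test; other genes were named after their values were seen. With 2 libraries a genotype a permutation test of 1 value cannot go below p = 0.33. The fits were tested on simulated data with a spread set in advance. For genotype over all cells, 43 of 50 genes raised by 1 and 29 of 46 lowered by 1 on the log2 scale were recovered. Of genes changed by 0.5 on that scale, 8 of 50 raised and 17 of 48 lowered were recovered. Most changes of that size were therefore missed at the simulated spread. Levels are 3′ counts, not per length, so the ranking of levels served only to choose names. Of the 46 genes, 45 have a RefSeq row.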

Additional observations from a re-analysis of the deposited data

Results flagged for a closer look

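The genotype difference of pole2 (adjusted p = 0.00658) and of mcm3 (adjusted p = 0.0239) differed between the 6 lineage gates by the interaction test, where 3.04% of all genes did. No replication gene passed that test with exactly 1 marker, with the stricter gates or without cells above 60000 UMIs. Tested for EVL against the mean of the 5 deep gates, 23 of 44 genes differed with cells over 0.5 for krt92, where 10.1% of all genes did. With the stricter gates 5 of 43 did, where 3.08% of all genes did. Both counts and shares are of differences upwards in Mrbm24a. In the krt92 gate 17 cells of Mrbm24a 2 above 100000 UMIs move with this result. With the stricter gates the median log2 difference of the replication genes was 0.35 with all 4 libraries. Without Mrbm24a 1, Mrbm24a 2, sibling 1 and sibling 2 in turn it was 0.11, 0.52, 0.44 and 0.37. Each of these fits leaves 1 library in a genotype, so their calls are not counted here. The cause of the flagged results was not tested.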

How the results depend on the processing

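The number of genes called in EVL, in either direction, held under all settings except the omission of single libraries (18 to 39 genes). Single calls did not all hold, as ccne2 and orc1 were not called with the stricter gates. Alternative counts in this section stand without the share of all genes called. Their changes are therefore not shown to be particular to replication genes. Counts of replication genes called against all other lineages moved most for the deep gates, in the order endoderm, axial, paraxial, epidermal and neural (0, 0, 3, 2 and 9 as reported). They were 5, 2, 8, 7 and 18 with DESeq2, 1, 2, 6, 6 and 15 with no scaling, 22, 26, 29, 33 and 34 in cells of 8000 to 20000 UMIs, 20, 15, 26, 34 and 33 in cells with exactly 1 marker, 16, 7, 24, 11 and 26 with the stricter gates, and 33, 32, 33, 34 and 38 without cells above 60000 UMIs. Markers over 1.5 gave 1 for paraxial and 1 for epidermal, limma, RLE size factors and no filter on low counts gave 1 for epidermal, and a minimum of 1000 UMIs gave 0 for epidermal. Leaving out 1 library gave 0 to 30 for endoderm, 0 to 26 for axial, 0 to 30 for paraxial, 0 to 29 for epidermal and 2 to 37 for neural cells.

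Against the other deep gates (0 as reported), the same order gave 3, 5, 2, 4 and 6 with exactly 1 marker, 0, 2, 2, 1 and 1 with the stricter gates, and 0, 0, 2, 1 and 6 without cells above 60000 UMIs. DESeq2 gave 1 for axial, paraxial and neural cells, and leaving out 1 library gave 0 to 1 for neural cells. These gates and the upper UMI limit were chosen after seeing the data.

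Between genotypes over all cells (0 as reported) 4 genes were called with no filter and 2 with entries kept apart, and 0 to 11 with 1 library left out. Within lineages no filter gave 1 in axial, paraxial, epidermal and neural cells, and leaving out 1 library gave 0 to 19 in EVL, 0 to 5 in endoderm, 0 to 4 in axial, 0 to 2 in paraxial, 0 to 3 in epidermal and 0 to 5 in neural cells. The test between lineages (2 as reported) gave 17 with DESeq2, 4 with limma and with no scaling, 7 with at least 6000 UMIs, 10 with markers over 1.5, and 0 in cells of 8000 to 20000 UMIs, with 1 marker, with the stricter gates and without cells above 60000 UMIs, and 0 to 27 with 1 library left out. Its EVL form (23 as reported) gave 5 with the stricter gates, 0 in the other 3 of these cell choices, and 2 to 32 with 1 library left out.

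The share of UMIs in Mrbm24a minus sibling, in percentage points, was 0.290 in EVL as reported, -0.0236 in cells of 8000 to 20000 UMIs (12 and 15 Mrbm24a cells, and 32 and 9 sibling cells of which 8 and 3 had under 2% EVL RNA, as no Mrbm24a cell did), 0.0099 as the mean of cells and 0.0489 without cells above 60000 UMIs. In endoderm (0.0202) it was 0.0064 in that UMI range, 0.0353 with 1 marker and 0.0553 with the stricter gates. In epidermal cells (0.0054) these were -0.0160, -0.0257 and 0.0485, the last with only 7 and 13 Mrbm24a cells. In that UMI range it was 0.0126 in axial (0.0336), 0.0024 in neural (0.0172) and 0.0054 in all cells (0.0217). The share itself was 0.881% in endoderm, 0.854% in axial, 0.918% in paraxial and 0.942% in epidermal cells with the stricter gates, 0.933% in epidermal cells with 1 marker, and 0.928% in epidermal and 0.932% in neural cells of 8000 to 20000 UMIs.

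With the replicate number as a block, paraxial and epidermal cells gave 1 gene each and the genotype tests stayed at 0. Deviations of same-numbered libraries correlated at r = 0.0956 over 16554 genes, so the numbers were not shown to pair the libraries. Of the alternatives for single named genes 254 kept their side of the threshold, 61 lost the call, 5 gained it and 0 changed sign. The cause of these changes was not tested. Between genotypes in EVL, simulated data recovered 9 of 47 genes lowered and 21 of 50 raised by 1 on the log2 scale. Their spread was set in advance and not estimated from these EVL sums, so recovery at the real spread was not tested.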
